A study of Sus scrofa with 6 samples.

Results

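Major histocompatibility complex (MHC) molecules show peptides to T cells, and the proteasome makes many of those peptides. Members were chosen by symbol: genes starting with SLA-, the swine leukocyte antigen prefix, or with PSMA, PSMB, PSMC, PSMD or PSME, and B2M, TAP1 and TAP2. The rule found 37 of the 4122 genes in the tables, namely 8 of class I (7 SLA heavy chains and B2M), 2 of peptide loading, 8 of class II and 19 of the proteasome. TAPBP and CIITA were not analysed here. The libraries came from lymph node, spleen and thymus of pigs at 3 months of age, labelled either RAG2 knockout, which the series design calls biallelic, or wild type, their littermates. The series title names a deletion of a single amino acid. Each tissue and genotype had 1 library, 6 in all, so no difference has a replicate check and no p-value is given. The labels do not say whether the tissues of a genotype came from the same animal.

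Class I molecules consist of a heavy chain and beta-2-microglobulin and present peptides from inside the cell, which the TAP transporter carries into the endoplasmic reticulum, to CD8 T cells. Class II molecules are pairs of an alpha and a beta chain on B cells, dendritic cells, macrophages and thymic epithelium, and present peptides from endosomes to CD4 T cells. The proteasome is a barrel of alpha and beta subunits with a regulatory cap, and interferon gamma exchanges its catalytic beta subunits for PSMB8, PSMB9 and PSMB10 and raises the PSME1-PSME2 activator. RAG2 is needed to assemble the antigen receptors of T and B cells.

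Fragments assigned to listed genes numbered between 1922562 and 2541724 per library. RAG2 RNA stood at 606 and 1072 FPKM in the wild-type and knockout thymus and at no more than 1.16 FPKM elsewhere, and a deletion of 1 amino acid need not alter that level, so it checks no genotype label. B-cell markers (5 analysed) summed to 1585 and 4.50 FPKM in the wild-type and knockout lymph node, to 540 and 6.63 FPKM in spleen, and to 156 and 186 FPKM in thymus. The 4 thymic epithelium markers summed to 2513 and 1187 FPKM in the wild-type and knockout thymus and to between 29.4 and 60.4 FPKM in the other 4 libraries. They did not share 1 direction in thymus, where 3 lay below wild type and 1 above. Only CCL25 (1423 and 414 FPKM) differed there by 2-fold or more. In whole tissue, fewer cells of a type and less RNA per cell cannot be told apart.

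FPKM are fragments normalised to transcript length and depth. A gene counts as measured in a tissue with at least 1 FPKM in either library, and as called when adding 1 FPKM to both libraries leaves a log2 ratio (knockout to wild type) of 1 or more, or -1 or less. Each fold compares the fragments of both libraries after scaling, and the range in brackets is its exact 95% Clopper-Pearson interval, which reflects counting and no difference between animals. In lymph node 1 of 32 measured members was called, against 25.6% of all 2910 measured genes (15.3% higher, 10.3% lower). In spleen 5 of 33 were called, against 18.9% of 2849 genes (8.88% higher, 10% lower). In thymus 0 of 32 were called, against 26.1% of 2908 genes (15.2% higher, 10.9% lower). The calls were SLA-DOB in lymph node and spleen, both lower, and SLA-2, B2M, PSME2 and PSMB8 in spleen, all higher.

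The classical class I heavy chains were at their highest level in the knockout spleen. SLA-1, the most abundant class I heavy chain in every library, stood at 1950 and 1634 FPKM in the wild-type and knockout lymph node, at 1680 and 3208 FPKM in spleen, and at 731 and 740 FPKM in thymus. The knockout spleen is the high library, both thymus libraries are low, and the remaining 3 lie close to each other. The spleen ratio was 1.92-fold (interval 1.87 to 1.98), a log2 ratio of 0.93 that falls short of a call. SLA-2 stood at 548 and 529 FPKM in the wild-type and knockout lymph node, at 530 and 1133 FPKM in spleen, and at 200 and 221 FPKM in thymus. Its spleen ratio, 2.16-fold (2.03 to 2.30, log2 ratio 1.09), was called.

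SLA-3 followed the same order of libraries as SLA-1 and SLA-2. It stood at 966 and 710 FPKM in the wild-type and knockout lymph node, 759 and 1249 FPKM in spleen (1.66-fold, 1.59 to 1.73) and 412 and 414 FPKM in thymus. SLA-5 stood at 178 and 145 FPKM in lymph node, 144 and 274 FPKM in spleen (1.93-fold, 1.71 to 2.18) and 66.5 and 70.5 FPKM in thymus. Reads of these genes may be shared: all 4 lie on chromosome 7 between 22824137 and 22959405 (Sscrofa11.1), where the reference interval of SLA-1 spans SLA-5 and overlaps SLA-2. The interval of SLA-2 in turn spans SLA-3. How fragments that fit several genes were assigned is not given in the sources used here, so the split among these chains is uncertain.

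The nonclassical chains SLA-6, SLA-7 and SLA-8, which lie together on chromosome 7 between 23622352 and 23649342, did not share this order of libraries. SLA-6 stood at 229 and 131 FPKM in the wild-type and knockout lymph node, 144 and 170 FPKM in spleen, and 156 and 93.0 FPKM in thymus. It was lower in the knockout by 1.74-fold (1.56 to 1.95) in lymph node and 1.67-fold (1.47 to 1.91) in thymus, without a call in either. Within a library, where no scaling enters, SLA-6 per SLA-1 was lower in the knockout in each tissue, from 0.118 to 0.0803 in lymph node, 0.0855 to 0.0530 in spleen and 0.213 to 0.126 in thymus, and the counting intervals of all 3 changes excluded equal ratios. SLA-8 stood at 196 and 127 FPKM in lymph node, 148 and 168 FPKM in spleen and 89.4 and 68.1 FPKM in thymus. SLA-7 differed less between libraries, at 38.0 and 50.7 FPKM in lymph node, 53.0 and 55.7 FPKM in spleen and 44.8 and 40.7 FPKM in thymus. By fragments SLA-7 per SLA-1 was 1.59 times as high in the knockout lymph node (1.25 to 2.03) and 0.552 times in spleen (0.448 to 0.680), and in thymus the interval included equality (0.697 to 1.15).

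As a group, 7 of 8 class I genes lay above wild type in the knockout spleen with an interval that excluded equal levels, against 28.6% of all measured genes, and none lay below (28.9% of all). The median log2 ratio of the 8 was 0.82, against -0.0159 for all measured genes. In lymph node 5 of 8 lay below with such an interval (30.6% of all genes) and only SLA-7 lay above (1.34-fold, 1.05 to 1.72, 31.0% of all genes), with a median of -0.37 against -0.00456. In thymus 6 of 8 intervals included equal levels, SLA-6 and SLA-8 lay below (31.0% of all genes), and the median was 0.0134 against -4.72e-05. The knockout spleen was the highest of the 6 libraries for 6 of 8 class I genes, all but SLA-6 and SLA-8, and for 16.9% of all genes measured in any library. Markers of other cells also differed between the spleen libraries. There 4 of 4 neutrophil markers were called higher in the knockout (summed 38.9 and 1705 FPKM). So were 3 of 4 measured natural killer cell markers (summed 231 and 1249 FPKM, NCR1 listed at 0 in all libraries). These rises were not particular to spleen. Neutrophil markers were called higher for 3 of 4 in lymph node (43.2 and 529 FPKM, 1 called lower) and in thymus (130 and 2049 FPKM). Natural killer cell markers were called higher for 2 of 4 measured in lymph node (102 and 476 FPKM). In thymus the count was 2 of 3 (36.9 and 112 FPKM). In the knockout spleen 4 of 4 fibroblast markers were called lower (summed 4069 and 1713 FPKM), as was the red cell gene HBB (41406 and 18970 FPKM). Their part in the class I values was not tested.

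**Figure D1:**
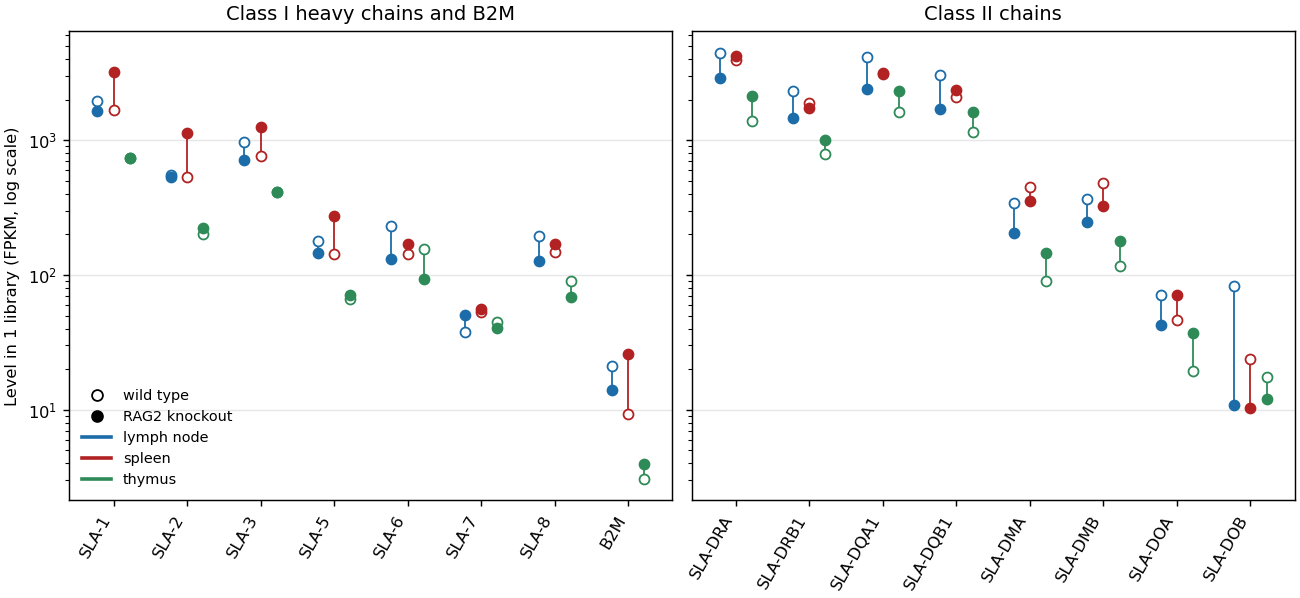
Level (FPKM, log scale) of each class I gene (left) and class II gene (right) in the 6 libraries. Each vertical line joins the wild-type (open) and RAG2 knockout (filled) library of 1 tissue. Filled spleen points stand highest for SLA-1, SLA-2, SLA-3 and SLA-5, and the SLA-DOB lymph node pair, at 82.4 and 10.9 FPKM, is the widest among the class II chains.

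B2M, the light chain of every class I molecule, rested on few fragments. It stood at 21.3 and 14.0 FPKM in the wild-type and knockout lymph node (20 and 14 fragments), at 9.37 and 26.0 FPKM in spleen (9 and 30 fragments), and at 3.06 and 3.98 FPKM in thymus (3 and 4 fragments). The spleen difference was called (2.85-fold, 1.32 to 6.84) and the other 2 intervals included equal levels. Per length, the ratio of B2M to SLA-1 within a library was between 0.00418 and 0.0109, whereas the 2 proteins pair one to one at the cell surface. The reference lists 2 entries of this symbol on chromosome 1, at 126837721 to 126844043 and 126865767 to 126878501. Whether fragments were lost between them was not tested.

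The peptide loading genes TAP1 and TAP2, whose products pair to form the TAP transporter, were near 0 in all libraries. TAP2 had 10 and 11 fragments in the wild-type and knockout lymph node, 14 and 21 in spleen, and 13 and 6 in thymus, and each interval included equal levels. TAP1 had at most 3 fragments in a library and was not measured in any tissue. The inducible catalytic subunits PSMB8 and PSMB9 lie next to them and were as low: PSMB9 was listed at 0 in all 6 libraries, and PSMB8 had 0 and 3 fragments in the wild-type and knockout spleen and at most 1 elsewhere. The PSMB8 call in spleen (log2 ratio 1.09) rests on those 3 fragments and its interval includes equal levels, so no fold is given.

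These 4 genes form an unbroken stretch of chromosome 7, TAP2 (25045085 to 25056915), PSMB8, TAP1 and PSMB9 (to 25077508), between SLA-DOB and BRD2. SLA-DOB, on the TAP2 side, had between 24 and 172 fragments per library. On the PSMB9 side coverage was higher. BRD2, a chromatin reader, had between 2878 and 4233 fragments per library, and SLA-DMB, the next class II gene, between 426 and 1730. In 5 of 6 libraries the highest of the 4 genes was TAP2 at 1.40 FPKM or more, and in the knockout thymus it was TAP2 at 0.783 FPKM. Genes that every cell uses were also listed at 0, among them the core subunits PSMB1 and PSMB3, and 774 of all 4122 genes (18.8%) had 0 fragments in all 6 libraries. No statement about the expression of the 4 genes is drawn from these values.

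**Figure D2:**
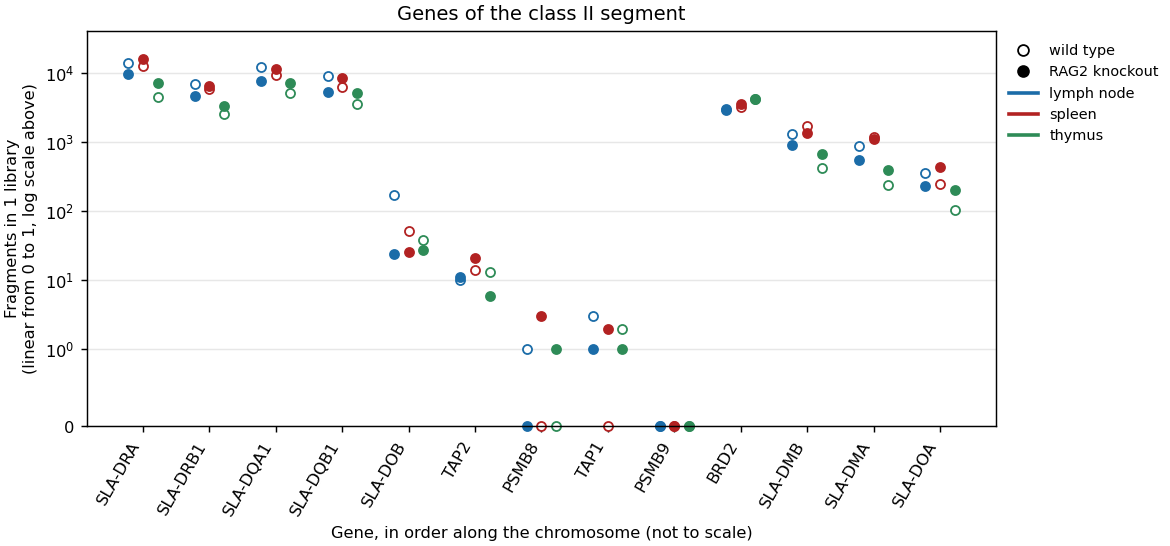
Fragments per library (linear from 0 to 1, log scale above) for the analysed genes from SLA-DRA to SLA-DOA in chromosomal order, wild type open and RAG2 knockout filled, coloured by tissue. TAP2, PSMB8, TAP1 and PSMB9 have at most 21 fragments, and BRD2 on the far side has at least 2878.

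Class II genes differed in direction between tissues. In the knockout lymph node all 8 lay below wild type with an interval that excluded equal levels, against 30.6% of all measured genes, and their median log2 ratio was -0.73. In the knockout thymus 7 of 8 lay above with such an interval, against 31.6%, and the median was 0.57. In spleen 3 lay above (28.6% of all genes), 4 below (28.9%) and SLA-DQA1 at 1.02-fold (0.992 to 1.05), and the median was -0.0452. SLA-DOB alone passed the size threshold.

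SLA-DRA and SLA-DRB1 are the chains of the DR molecule. SLA-DRA stood at 4459 and 2881 FPKM in the wild-type and knockout lymph node, at 3940 and 4214 FPKM in spleen, and at 1384 and 2135 FPKM in thymus. It was 1.54-fold lower in the knockout lymph node (knockout to wild type 0.650, 0.633 to 0.667) and 1.54-fold higher (1.49 to 1.60) in the knockout thymus. SLA-DRB1 stood at 2303 and 1455 FPKM in lymph node, 1876 and 1737 FPKM in spleen and 787 and 1005 FPKM in thymus. The thymus libraries were the lowest for both chains, and the gap between thymus and lymph node was smaller in the knockout.

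SLA-DQA1 and SLA-DQB1, the chains of DQ, had the same order with respect to tissue. SLA-DQA1 stood at 4100 and 2412 FPKM in lymph node, 3095 and 3139 FPKM in spleen, and 1606 and 2297 FPKM in thymus. SLA-DQB1 stood at 3061 and 1711 FPKM in lymph node, 2088 and 2341 FPKM in spleen, and 1144 and 1621 FPKM in thymus. The DQB1 ratio, 1.78-fold lower (1.72 to 1.84), was the largest of the 4 DR and DQ chains in lymph node. In thymus the 4 chains were 1.28-fold (SLA-DRB1) to 1.54-fold (SLA-DRA) higher in the knockout.

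SLA-DMA and SLA-DMB form DM, which helps exchange the invariant-chain fragment for antigenic peptide. Both lay below wild type in spleen as well as in lymph node. SLA-DMA stood at 341 and 205 FPKM in lymph node, 451 and 352 FPKM in spleen, and 89.6 and 145 FPKM in thymus. SLA-DMB stood at 368 and 245 FPKM in lymph node, 481 and 324 FPKM in spleen, and 116 and 179 FPKM in thymus. In spleen DM per DR and DQ was 0.0847 and 0.0591 in the wild-type and knockout library, and the counting interval of the change excluded equal ratios, while in lymph node the 2 ratios were 0.0510 and 0.0532 and the interval included equality. In the reference, the interval of BRD2 spans both DM genes, and the strand setting of the counting is not given in the sources used here.

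SLA-DOA and SLA-DOB form DO, an inhibitor of DM that is known from B cells and thymic epithelium. SLA-DOB stood at 82.4 and 10.9 FPKM in the wild-type and knockout lymph node (172 and 24 fragments), at 23.8 and 10.3 FPKM in spleen (51 and 26 fragments), and at 17.4 and 12.1 FPKM in thymus (38 and 27 fragments). The wild-type lymph node is far above the rest, and the 3 knockout libraries are the 3 lowest. SLA-DOB was 7.49-fold lower in the knockout lymph node (knockout to wild type 0.133, 0.0832 to 0.205) and 2.29-fold lower (1.40 to 3.83) in spleen, and in thymus the interval included equal levels. SLA-DOA stood at 70.4 and 42.4 FPKM in lymph node (1.66-fold lower, 1.40 to 1.96), 46.4 and 70.8 FPKM in spleen (1.53-fold higher, 1.31 to 1.80), and 19.5 and 37.0 FPKM in thymus (1.90-fold higher, 1.49 to 2.42).

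The ratio of SLA-DOB to SLA-DOA within a library was lower in the knockout in each tissue. It was 1.17 and 0.257 in the wild-type and knockout lymph node, 0.514 and 0.145 in spleen, and 0.891 and 0.326 in thymus. By fragments the knockout ratio was 0.221 times that of wild type in lymph node (0.134 to 0.353), 0.285 times in spleen (0.166 to 0.479) and 0.366 times in thymus (0.203 to 0.654). The 3 intervals overlap, and all 3 exclude equal ratios. B-cell markers moved with SLA-DOB in lymph node and spleen, where all 5 were called lower, and in thymus 3 of 5 were called lower while CD79A stood at 120 and 172 FPKM. Their part in the SLA-DOB result was not tested.

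Markers of other cells that carry class II differed between the same libraries. Dendritic cell markers (6 analysed) summed to 603 and 425 FPKM in the wild-type and knockout lymph node, 329 and 485 FPKM in spleen, and 209 and 154 FPKM in thymus. Of the 6, 1 was called lower in lymph node, 3 lower and 2 higher in spleen, and 4 lower and 2 higher in thymus. Only 1 of the lower spleen calls had an interval that excluded equal levels. CCL17 and CCL22, called lower there, rested on 2 and 0 fragments each. Macrophage markers (10 analysed, CD163 listed at 0 in all libraries) summed to 9854 and 14989 FPKM in lymph node, 30741 and 23840 FPKM in spleen, and 1125 and 2923 FPKM in thymus. Of 9 measured, 3 were called higher in lymph node, and 2 higher and 2 lower in spleen. In the knockout thymus 7 were called higher, among them CD14 (11.7 and 60.6 FPKM), and 1 lower, and IRF8, a transcription factor of dendritic cells and macrophages, stood at 45.0 and 127 FPKM. The part of these cells in the class II values was not tested.

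The level of class II relative to class I differed between libraries. The 4 DR and DQ chains summed to 3.39 times the 7 class I heavy chains in the wild-type lymph node and 2.54 times in the knockout. In spleen the 2 ratios were 3.18 and 1.83, and in thymus 2.90 and 4.28. By fragments the knockout ratio was 0.758 times that of wild type in lymph node (0.737 to 0.780), 0.577 times in spleen (0.563 to 0.592) and 1.47 times in thymus (1.41 to 1.53). The knockout spleen thus had the lowest class II share of the 6 libraries and the knockout thymus the highest. The intervals for these sums use the normal approximation on the log odds ratio.

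**Figure D3:**
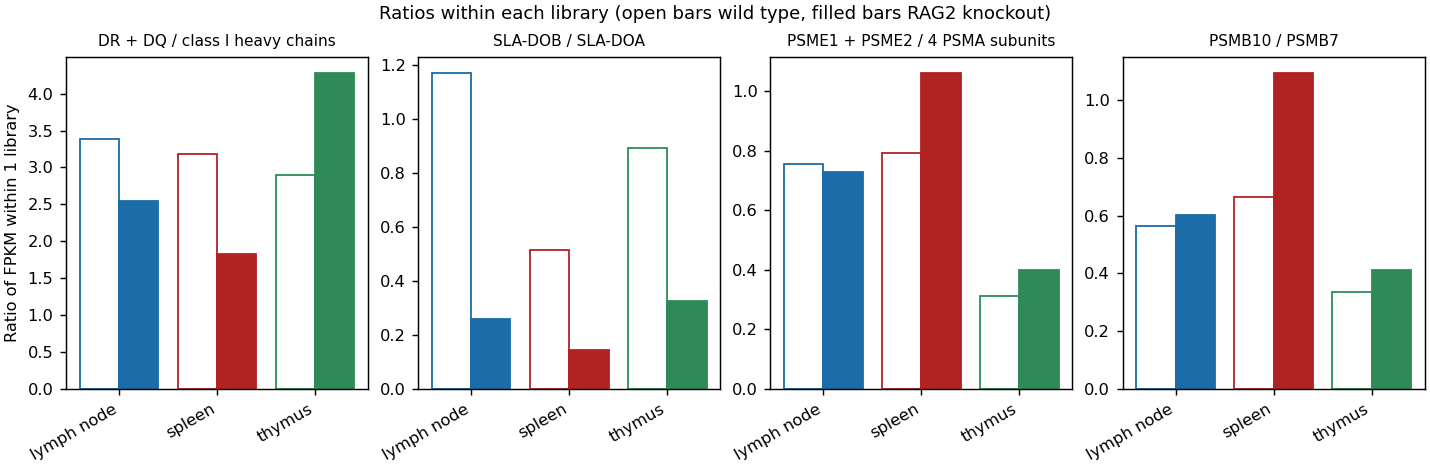
Ratios of FPKM within each library, which do not depend on scaling between libraries, for wild type (open bars) and RAG2 knockout (filled bars) in each tissue. DR plus DQ per class I heavy chain is lowest in the knockout spleen (1.83) and highest in the knockout thymus (4.28), and SLA-DOB per SLA-DOA is lower in the knockout in each tissue.

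Proteasome genes were higher in the knockout spleen and mostly lower in the knockout thymus, by less than 2-fold for all but PSME2 among those with 10 or more fragments. In spleen 14 of 16 measured genes lay above wild type with an interval that excluded equal levels, against 28.6% of all genes, and the median log2 ratio was 0.41. In thymus 10 of 15 lay below with such an interval, against 31.0%, none lay above, and the median was -0.28. In lymph node 12 of 15 intervals included equal levels and the median was -0.0581. Below lay 3 genes (PSMA6, PSMB6 and PSME1), against 30.6% of all genes. Of the 4 proteasome genes not measured in lymph node and thymus, PSMB1, PSMB3 and PSMB9 were listed at 0 in all libraries and the other was PSMB8.

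The alpha subunits build the outer rings of the barrel. PSMA6 stood at 373 and 286 FPKM in the wild-type and knockout lymph node, at 347 and 363 FPKM in spleen, and at 940 and 549 FPKM in thymus. Its thymus ratio, 1.71-fold lower (1.60 to 1.83), was the largest proteasome difference in that tissue. PSMA7 stood at 319 and 320 FPKM in lymph node, 301 and 378 FPKM in spleen, and 698 and 471 FPKM in thymus (1.48-fold lower, 1.36 to 1.62). PSMA4 and PSMA5 differed in that their thymus intervals included equal levels. PSMA4 stood at 154 and 161 FPKM in lymph node, 154 and 233 FPKM in spleen (1.52-fold higher, 1.37 to 1.70) and 321 and 325 FPKM in thymus. PSMA5 stood at 164 and 140, 177 and 231, and 341 and 318 FPKM in the same order.

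The beta subunits form the inner rings and hold the catalytic sites. PSMB6 and PSMB7 are the constitutive catalytic subunits that PSMB9 and PSMB10 replace. PSMB6 stood at 296 and 244 FPKM in lymph node, 291 and 330 FPKM in spleen, and 552 and 377 FPKM in thymus (1.46-fold lower, 1.33 to 1.61). PSMB7 stood at 220 and 193 FPKM in lymph node, 233 and 261 FPKM in spleen, and 551 and 453 FPKM in thymus. PSMB4, a structural subunit, stood at 261 and 251 FPKM in lymph node, 267 and 335 FPKM in spleen, and 556 and 371 FPKM in thymus (knockout to wild type 0.668, 0.612 to 0.727).

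PSMB10, the only inducible catalytic subunit with more than a few fragments, stood at 124 and 116 FPKM in lymph node, 155 and 286 FPKM in spleen, and 184 and 186 FPKM in thymus. The knockout spleen alone stands out, at 1.95-fold (1.47 to 2.62) from 71 to 162 fragments, with a log2 ratio of 0.88 that is short of a call. PSMB10 per PSMB7 within a library was 0.564 and 0.603 in lymph node, 0.664 and 1.09 in spleen, and 0.334 and 0.411 in thymus. By fragments the ratio was 1.72 times as high in the knockout spleen (1.27 to 2.36), and the intervals in lymph node (0.733 to 1.66) and thymus (0.893 to 1.69) included equality. A fragment of PSMB10 was worth 5.14 times the FPKM of a fragment of PSMB7 in the wild-type thymus. The level of this ratio therefore depends on the transcript lengths that the deposited FPKM used, while its change by fragments does not.

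The cap genes, which unfold and admit tagged proteins, moved as a group of 4. PSMC1, an ATPase, stood at 124 and 134 FPKM in lymph node, 138 and 188 FPKM in spleen, and 257 and 212 FPKM in thymus. PSMC2, another ATPase, stood at 107 and 115, 113 and 131, and 225 and 185 FPKM in the same order. PSMD2, a scaffold of the cap base, stood at 205 and 206 FPKM in lymph node, 214 and 309 FPKM in spleen (1.45-fold higher, 1.37 to 1.54), and 358 and 258 FPKM in thymus (1.39-fold lower, 1.31 to 1.47). PSMD4, a ubiquitin receptor, stood at 174 and 175, 177 and 253, and 344 and 277 FPKM in the same order. All 4 lay above wild type in spleen and below in thymus with intervals that excluded equal levels, and all 4 intervals in lymph node included equality.

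The activators dock on the barrel in place of the cap. PSME2 stood at 308 and 312 FPKM in the wild-type and knockout lymph node, at 299 and 687 FPKM in spleen, and at 359 and 292 FPKM in thymus. The knockout spleen lies far above the other 5 libraries, and its ratio of 2.33-fold (2.11 to 2.57, log2 ratio 1.20) was called higher. PSME1, its partner in 1 ring, stood at 456 and 349 FPKM in lymph node, 475 and 591 FPKM in spleen (1.26-fold, 1.17 to 1.36) and 354 and 372 FPKM in thymus. PSME2 per PSME1 was 0.630 and 1.16 in the wild-type and knockout spleen, by fragments 1.85 times as high in the knockout (1.63 to 2.09), and in lymph node 0.676 and 0.895 (1.33 times, 1.14 to 1.54). In thymus the ratio went the other way, from 1.01 to 0.786 (0.775 times, 0.669 to 0.897). PSME3, a nuclear activator, stood at 68.7 and 55.9 FPKM in lymph node, 60.2 and 89.7 FPKM in spleen and 93.7 and 81.0 FPKM in thymus, and the ratio of PSME1 plus PSME2 to PSME3 had intervals that included equality in all 3 tissues. The neutrophil, natural killer cell, fibroblast and red cell markers given above differ between the same spleen libraries, and their part was not tested.

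**Figure D4:**
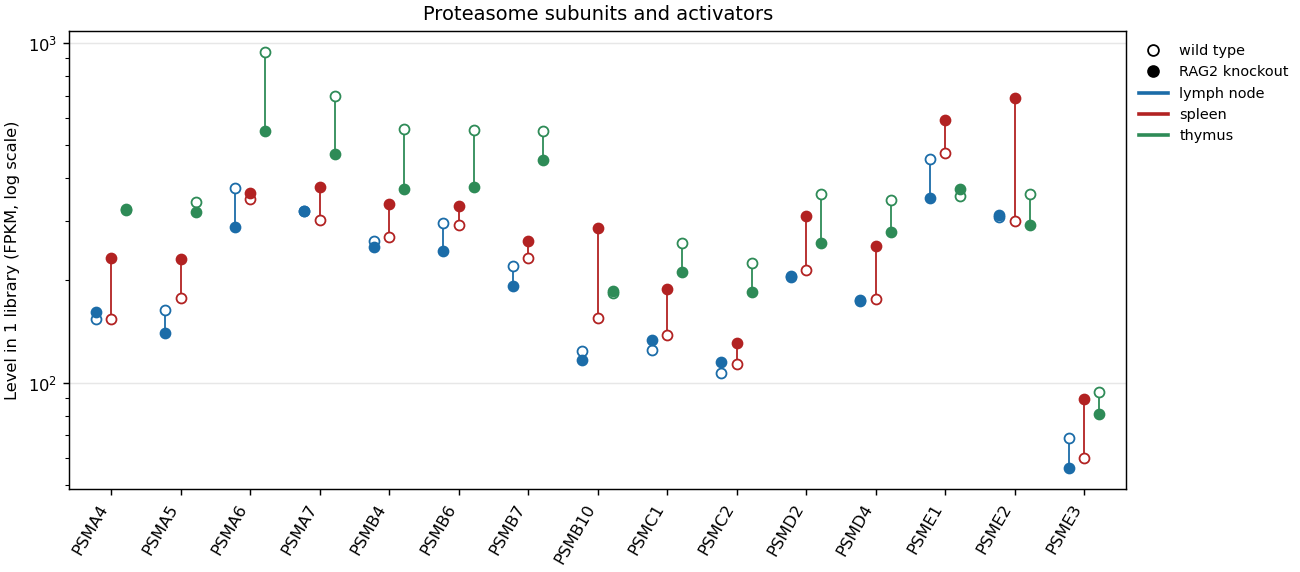
Level (FPKM, log scale) of the 15 proteasome genes with 10 or more fragments in all 6 libraries, wild type open and RAG2 knockout filled, joined within a tissue. Barrel and cap genes stand highest in the wild-type thymus in 10 of 12 cases (PSMA4 and PSMB10 are the exceptions), and PSMB10, PSME1 and PSME2 stand highest in the knockout spleen.

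Between tissues, the barrel and cap genes and the MHC genes took opposite orders. Tables were calculated separately by tissue, so these levels are a description. All 12 measured barrel and cap genes stood higher in the wild-type thymus than in the wild-type lymph node and spleen, a pattern of 49.2% of all measured genes. Their median ratio of thymus to lymph node was 2.08, against 1.19 over all genes with at least 1 FPKM in both. All 8 class II genes stood lower in the wild-type thymus than in both other wild-type libraries (33.3% of all genes), with a median ratio to lymph node of 0.312. Among class I genes 6 of 8 did so, and SLA-6 and SLA-7 did not. Over all 6 libraries the wild-type lymph node was the highest for 5 of 8 class II genes, against 8.97% of all genes, and the wild-type thymus for 11 of 16 proteasome genes, against 29.7%. Both thymus libraries lay below the other 4 for 7 of 8 class II genes, all but SLA-DOB, against 16.9% of all genes, and above the other 4 for 10 of 16 proteasome genes, against 30.8%.

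In the knockout these gaps were narrower for class II and for the barrel and cap. The knockout thymus lay above both other knockout libraries for 10 of 16 proteasome genes (45.1% of all genes) and below both for 7 of 8 class II genes and 8 of 8 class I genes (32.9%). The median ratio of thymus to lymph node was 0.807 for class II genes and 1.59 for the barrel and cap genes, against 1.16 over all genes. Genes of T cells moved with the thymus values: 6 of 9 T-cell markers were called lower (summed 8757 and 4161 FPKM), and so were 4 of 5 genes whose products read MHC molecules. CD8A, the coreceptor that reads class I, stood at 534 and 11.4 FPKM in the wild-type and knockout thymus, and CD4, which reads class II, at 412 and 19.5 FPKM. In lymph node all 9 T-cell markers were called lower (summed 1827 and 225 FPKM), and all 7 adipocyte markers higher (107 and 8912 FPKM). Their part was not tested. PSME1 plus PSME2 did not follow the barrel: per summed PSMA subunits they stood at 0.310 and 0.399 in the wild-type and knockout thymus, against 0.756 and 0.729 in lymph node and 0.790 and 1.06 in spleen.

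**Figure D5:**
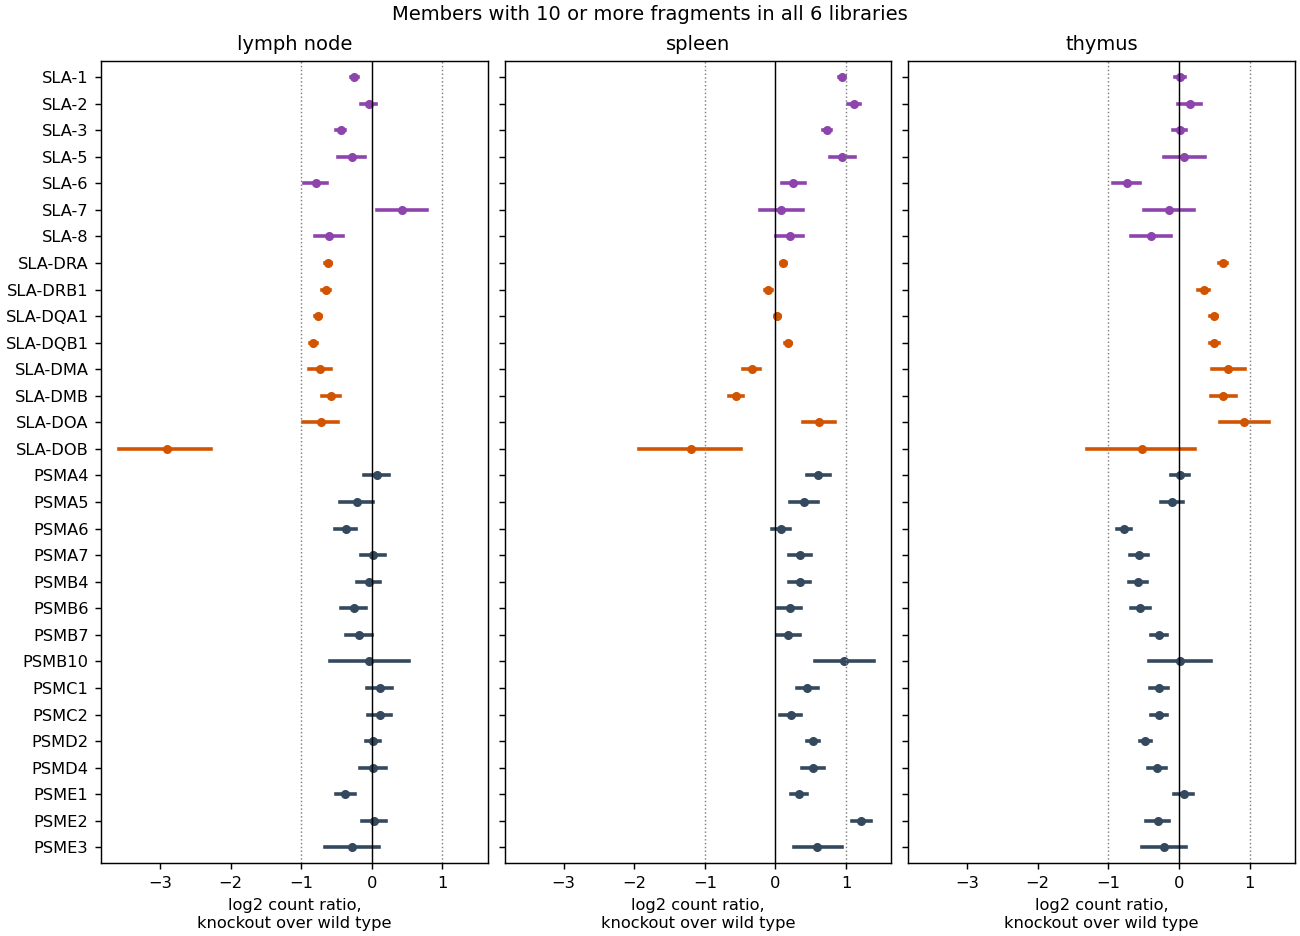
log2 ratio of scaled fragment counts, knockout over wild type, with 95% Clopper-Pearson intervals (counting error only) for the 30 members with 10 or more fragments in all 6 libraries, class I in purple, class II in orange and proteasome in dark grey. Dotted lines mark a log2 ratio of 1 in either direction. Class II points lie left of 0 in lymph node and, except SLA-DOB, right of 0 in thymus, while all class I and proteasome points lie right of 0 in spleen.

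Among 24 regulators of these genes 16 were analysed and 10 measured in each tissue. None was called in lymph node. In spleen 2 were called higher and none lower: the kinase JAK1 (26.3 and 127 FPKM, on 2 and 13 fragments) and the cytokine interferon gamma, IFNG (1.24 and 6.29 FPKM, on 2 and 12 fragments). IRF1, an activator of class I and TAP genes, stood at 210 and 304 FPKM in spleen and was not called. Of the 10 regulators measured in spleen, 5 lay above wild type and 5 below. The interval excluded equal levels for 5 of those above and 4 of those below. In thymus IRF8 and JAK2 were called higher, and IFNG lower on 2 and 0 fragments. The JAK2 call comes from the deposited FPKM alone (62.6 and 575), since its fragments numbered 615 and 685. NLRC5 and RFXANK, which act on MHC promoters, were listed at 0 in all 6 libraries.

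Of 5 class I loading and trimming genes 1 was called in lymph node and in spleen and 0 in thymus. It was LNPEP, a peptide-trimming aminopeptidase, lower at 324 and 138 FPKM and at 256 and 119 FPKM. The chaperones of class I folding, CALR, CANX and PDIA3, stood at 1520 and 2042, 684 and 1019, and 1119 and 1554 FPKM in spleen. In lymph node they stood at 1300 and 1040, 485 and 631, and 702 and 732 FPKM. In thymus they stood at 987 and 790, 499 and 486, and 681 and 603 FPKM, and CANX hardly differed (6296 and 6278 fragments). Of 4 measured class II handling genes, the endosomal protease CTSL was called higher in lymph node (217 and 544 FPKM) and thymus (2661 and 7519 FPKM), and CTSB in thymus (319 and 881 FPKM). Of 4 class I-like genes, the lipid-presenting CD1D was called lower in thymus (1243 and 90.6 FPKM), as was PCD1E (724 and 174 FPKM), while PROCR, the protein C receptor, was called higher there (20.4 and 48.8 FPKM). In lymph node PCD1E (24.5 and 5.72 FPKM) and PROCR (log2 ratio -1.32) were called lower. None of the 6 measured assembly and ubiquitin genes was called in any tissue. The ubiquitin precursor UBB stood at 5660 and 3188 FPKM in thymus.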

How the data were processed

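Total RNA libraries of 3 tissues and 2 genotypes were made with a stranded kit, per the labels' protocols. FastQC 0.11.9, Trimmomatic 0.39, STAR 2.7.9a, Cufflinks 2.2.1 and the build Sscrofa11.1 are named in the submitters' processing notes, without order or settings. FPKM values were deposited by the authors, 1 table per tissue. The deposited count tables hold estimated counts multiplied by 1 factor per library, read from the values: dividing by each library's commonest nonzero value (0.925 to 1.08) made 97.0 to 99.2% of values whole within 0.02, and the results were rounded to fragments. Only some genes are listed, so fragment totals understate library depth.

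Ratios, calls and intervals were computed on all 4122 genes and printed for members. Ratios of 2 gene sums within a library were compared between libraries by the odds ratio of their fragments, with an exact conditional interval where each sum is under 5000 fragments and a normal one otherwise. A fit of genotype across tissues was not made, since tables were calculated separately and tissues may share an animal. Named genes are all class I, loading, class II and catalytic or activator members, other proteasome genes called or extreme in their family, and called genes of the other lists. The other genes given (PSMA5, PSMA7, IRF1, NLRC5, RFXANK, BRD2, the chaperones, UBB, CD79A and CD14, and PSMB1, PSMB3, NCR1 and CD163, named as listed at 0) were chosen after their values were seen. Members and lists were chosen with earlier results of these data known. Coordinates, counted from 1, come from the RefSeq annotation of Sscrofa11.1. The calculations were tested on simulated data. A planned count of promoter motifs was not made, since no sequence was used here. Alternatives were pseudocounts of 0.1 and 5, no minimum, minimums of 5 FPKM and 10 counts, total scaling, edgeR's TMM and DESeq2's size factors on the counts, centring, a threshold of 2 and the counting interval. Python 3.11.15, numpy 2.4.6, pandas 2.3.3, scipy 1.17.1, matplotlib 3.10.9, R 4.3.3, edgeR 4.0.16 and DESeq2 1.42.0 were used.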

Additional observations from a re-analysis of the deposited data

Results flagged for a closer look

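Group medians of the log2 ratio took opposite signs in 2 tissues in 6 cases. With 1 library per group, none of these differences was tested. Some cases rest on a median whose counting interval, taken from the middle member or members, included equal levels. These medians were class I and peptide loading in thymus, class II in spleen and proteasome in lymph node. The first of them was -0.0639 without a minimum and with 10 counts, so its sign then no longer differed from that in lymph node. Class II genes had a median of -0.73 in lymph node and 0.57 in thymus, a difference of -1.30. The spleen median (-0.0452) minus that of thymus was -0.61. Class I and peptide loading genes had a median of -0.30 in lymph node and 0.72 in spleen, a difference of -1.02. Their median in thymus was 0.00964, so that lymph node and thymus differed by -0.31. Proteasome genes had a median of -0.0581 in lymph node, 0.41 in spleen and -0.28 in thymus, so that lymph node and spleen differed by -0.47 and spleen and thymus by 0.69.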

How the results depend on the processing

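Of 81 median log2 ratios under alternatives, 75 stayed within the counting interval of the middle member. The class I and peptide loading median in spleen was 0.53 without an expression minimum, which adds TAP1 near 0, and 0.82 with a minimum of 5 FPKM, which drops TAP2. With counts scaled to their total the thymus medians were 0.13 for class I and peptide loading, 0.68 for class II and -0.16 for the proteasome, and the class II median in spleen was -0.0819. That scaling moves the median of all thymus genes to 0.12, so that relative to all genes the class I median stays near 0 and the proteasome median below. The class I thymus median was -0.0639 without a minimum and with 10 counts, and the lymph node proteasome median was 0 without a minimum. The spleen calls numbered 3 with a pseudocount of 5, which lost PSMB8 (0.29) and SLA-DOB (-0.92), and 0 at a threshold of 2. In thymus, against 0, 1 member was called with a pseudocount of 0.1 and with DESeq2's size factors (TAP2, lower) and with total scaling (SLA-DOA, higher). All 12 alternative subunit ratios stayed within their intervals, which is no check. The intervals were built on the fragment ratios, which were among the alternatives. The rest only added 1 FPKM to far larger sums. Precision is limited by depth for B2M, TAP2 and SLA-DOB, which had between 3 and 172 fragments.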
